A study of Mus musculus with 12 samples.

Results

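Microglia of mice with a conditional deletion of Nhe1 were set against wild-type (WT) microglia in the hemisphere that had undergone ischemic stroke. The comparison took the 3 cKO IL libraries and the 3 WT IL libraries, 6 of the 12 RNA-seq libraries of the series, and its members were chosen by the genotype and the hemisphere that the headers of the count table give (cKO, conditional knockout; IL, ipsilateral to the stroke). The cKO mice were Cx3cr1-CreER+/-; Nhe1f/f and the WT mice were Cx3cr1-CreER+/-; Nhe1+/+, so both genotypes carried the tamoxifen-inducible Cre recombinase in place of a Cx3cr1 allele. Both received tamoxifen at 75 mg per kg per day for 5 days at postnatal day 30 to 40, and after a wait of 30 days both underwent 60 min of occlusion of the middle cerebral artery. Mice of both sexes, 2 to 3 months old, were used across the study, and no label gives the sex behind a library. At 72 hours the microglia of the stroke (IL) and the opposite (contralateral, CL) hemisphere were pulled out with magnetic beads against P2RY12, and the preparations were required to be over 95% positive for CD11b. The Cx3cr1 promoter also drives Cre in circulating monocytes and in other brain macrophages, and the wait after tamoxifen lets blood monocytes be replaced by cells that were not recombined. The libraries of a group are called A, B and C. The study describes its replicates as independent animals, and no label names the animal behind a library.

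NHE1 is the Na+/H+ exchanger of the plasma membrane: it lets sodium in, pushes protons out and so keeps the cytosol alkaline. In microglia it removes the acid that the NADPH oxidase and glycolysis leave behind. After ischemic stroke microglia move away from a homeostatic state, marked by genes such as P2ry12, Tmem119 and Siglech, and take on phagocytic, lipid-handling and inflammatory programs. Engulfed myelin and cell debris are broken down in lysosomes, the freed cholesterol is exported through ABCA1 onto ApoE under control of the nuclear receptors LXR and RXR, and a set of genes marked by Apoe, Spp1 and Cst7 is known as the disease-associated microglia (DAM) program. Type I interferon, acting through STAT2 and IRF9 and their partners on a short promoter element, switches on a separate program of antiviral genes in a part of these cells.

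The cKO IL libraries held 44907863, 47256174 and 43961276 counts, against 18425180, 25166928 and 23087202 counts in the WT IL libraries, and 35674 of 53801 genes had enough counts to be tested. Levels are given as counts per 1000000 counts after TMM scaling (CPM), and differences as log2 fold change of cKO IL over WT IL from edgeR's quasi-likelihood test on all 12 libraries. The 3 cKO IL libraries were alike, with correlations of 0.946 to 0.951 between their log2 levels over the 10320 genes that averaged at least 10 CPM. The WT IL libraries were not. WT IL A had correlations of 0.681 to 0.723 with the cKO IL libraries and up to 0.958 with a CL library, WT IL B had 0.902 to 0.911 with the cKO IL libraries, and WT IL C had 0.949 to 0.952 with them but 0.657 to 0.868 with the other WT IL libraries. Spp1 (osteopontin), a stroke-induced microglial gene, shows the spread: it stood at 8589, 4314 and 3522 CPM in cKO IL, against 9.36, 1252 and 4673 CPM in WT IL. WT IL C overlapped the cKO IL libraries there and WT IL A did not. Ddx3y, a Y-linked helicase gene, stood at 161, 135 and 121 CPM in cKO IL, against 75.5, 112 and 148 CPM in WT IL, and Xist, the RNA that coats the inactive X of female cells, at 0 CPM in each cKO IL library and at most 0.465 CPM in WT IL. List medians, and the values of some single genes, are given with all 6 libraries, without WT IL A and without WT IL C.

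**Figure D1:**
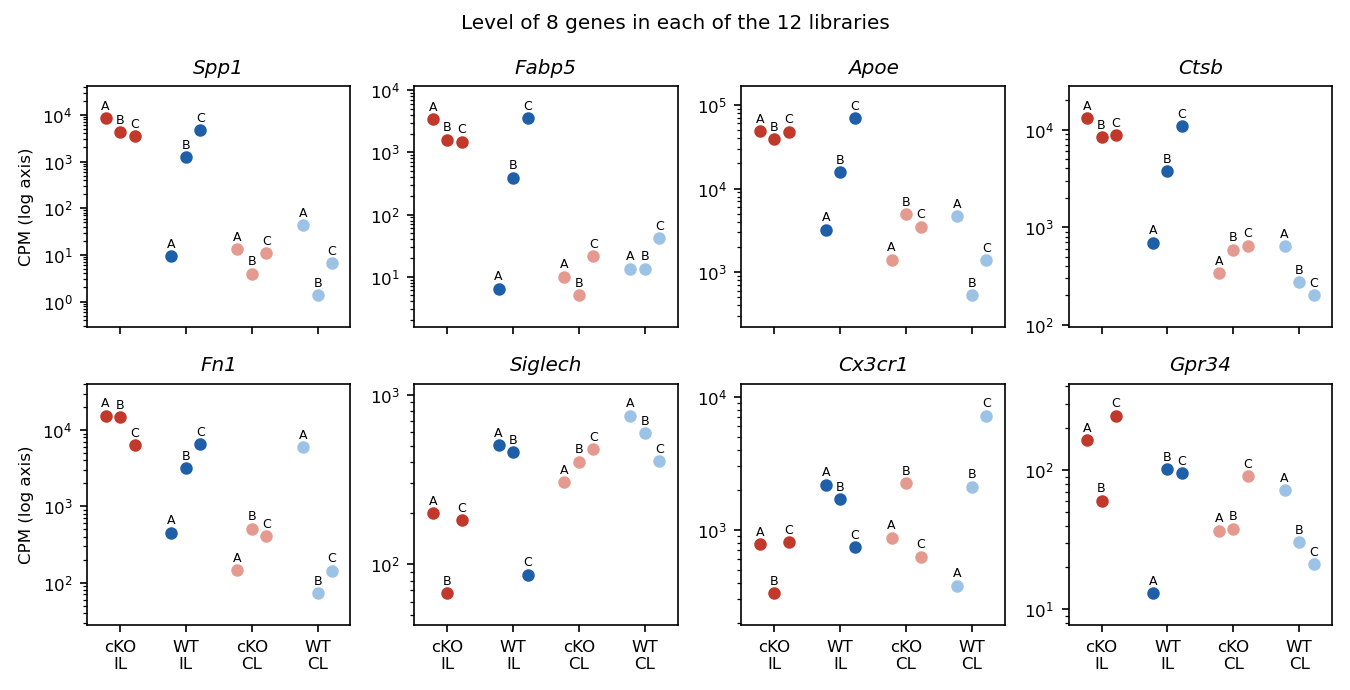
Levels in CPM after TMM scaling (y axes, log scale) in all 12 libraries, 3 per group, with cKO IL drawn left of WT IL. Each point is a library; Spp1 stands at 8589, 4314 and 3522 CPM in cKO IL, against 9.36, 1252 and 4673 CPM in WT IL, while Cx3cr1 overlaps between genotypes.

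Among the 14 Na+/H+ exchangers and their cofactors, 6 of 14 had a positive log2 fold change and the median was -0.22 (0.08 without WT IL A and -0.35 without WT IL C).

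Microglial markers were abundant in all 6 libraries. The 10 microglial markers together stood at 7280.3, 3927 and 7646 CPM in cKO IL, against 9429.9, 8856 and 4578 CPM in WT IL, and none was at 0. P2ry12 itself, the purinergic receptor of microglial processes and the target of the sort, stood at 407, 129 and 539.8 CPM in cKO IL, against 84.7, 364 and 191 CPM in WT IL. The 10 markers of infiltrating monocytes together stood at 18005, 16104 and 7055 CPM in cKO IL, against 569.98, 3568 and 7606 CPM in WT IL. Fn1, the gene of fibronectin, made up most of this sum in each of the 6 IL libraries. Fn1 stood at 15496, 14837 and 6364 CPM in cKO IL, against 451, 3189 and 6535 CPM in WT IL. Ccr2, the receptor that brings monocytes to injured tissue, stood at 724, 285 and 135 CPM in cKO IL, against 8.14, 103 and 411 CPM in WT IL. Both were lowest in WT IL A. The 8 markers of border-associated macrophages, F13a1 shared with the monocyte set, summed to 3503, 3022 and 1735 CPM in cKO IL, against 1691, 1747 and 2847 CPM in WT IL. The 8 of endothelial and mural cells summed to 193, 563 and 325 CPM in cKO IL, against 166, 151 and 372 CPM in WT IL. The 7 of oligodendrocytes summed to 164 to 222 CPM in cKO IL and 124 to 195 CPM in WT IL. Lower sums came from 8 neutrophil markers, with 82.3 to 119 CPM in cKO IL and 39.9 to 114 CPM in WT IL. The 8 of T and NK cells summed to 3.25 to 8.35 CPM in cKO IL and 3.06 to 15.5 CPM in WT IL. The 6 neuronal markers summed to 12.2 to 20.8 CPM in cKO IL and 17.4 to 47.0 CPM in WT IL, and the 6 of astrocytes to 74.5 to 110.35 CPM in cKO IL and 46.9 to 133 CPM in WT IL. In bulk libraries, fewer cells of a type and less of its RNA per cell cannot be told apart.

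Of a broader list of 28 genes of infiltrating monocytes, 28 of 28 were higher in cKO IL on average, with a median log2 fold change of 1.16 (0.78 without WT IL A and 2.61 without WT IL C). The median over all genes was -0.24 (0.01 without WT IL A and -0.49 without WT IL C), and 41.9% of all genes tested and 68.5% of the 9897 protein-coding genes that averaged at least 10 CPM were positive. The cKO IL libraries all lay above the WT IL libraries for 9 of the 28, against 4.82% of all genes tested and 11.3% of those protein-coding genes. Chil3, a secreted chitinase-like lectin, was one of the 9, with 662, 218 and 147 CPM in cKO IL, against 4.77, 40.03 and 126 CPM in WT IL. Ly6c2, the surface antigen of inflammatory monocytes, was another, with 12.5, 19.6 and 21.2 CPM in cKO IL, against 0.988, 4.73 and 8.33 CPM in WT IL. F13a1 (coagulation factor XIII) was not, with 929, 643 and 310.5 CPM in cKO IL, against 57.8, 181 and 493 CPM in WT IL. Of the 28 genes, WT IL A lay below every cKO IL library for 27, WT IL B for 27 and WT IL C for 10. The shares of the abundant protein-coding genes were 53.4%, 55.1% and 30.9%, so the count for WT IL C lay near its share. The part of these cells in the gene groups that follow was not tested.

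Over all genes, edgeR called 0 at an adjusted p under 0.05 (0% of 35674), and the lowest adjusted p was 0.997. At an unadjusted p under 0.05, 119 genes were higher in cKO IL (0.334%) and 724 lower (2.03%). DESeq2 called 4 higher and 3 lower (0.0186% of 37666). limma's voom with a quality weight for each library called 2578 higher and 1669 lower, with weights of 1.43, 1.33 and 0.99 for cKO IL, against 0.743, 8.16 and 0.314 for WT IL, so that WT IL B outweighed both other WT IL libraries. Of the DESeq2 calls that edgeR also tested, the protein-coding gene Fjx1 had 0.504, 0.266 and 0 CPM in cKO IL, against 4.42, 2.69 and 3.30 CPM in WT IL, and the others stayed under 1 CPM; Fjx1 was picked after its values were seen. The thresholds of the study's methods, an unadjusted p under 0.05 and over 2-fold, passed 119 genes as higher and 723 as lower. Without WT IL A they passed 27 as higher (0.0757%), and without WT IL C 1516 (4.25%). No single gene can be said to have changed with genotype by the adjusted test, and the values that follow describe levels and the spread between libraries.

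The 10 protein-coding genes with the lowest p among those higher in cKO IL without overlap were led by Rpl29, whose protein sits in the large subunit of the ribosome (chr9:106429454-106431568, + strand). Rpl29 stood at 353, 225 and 373 CPM in cKO IL, against 8.19, 11.7 and 35.6 CPM in WT IL. The Rpl29 log2 fold change was 4.10 ± 0.93 (SE), unadjusted p = 0.000216. Its lowest cKO IL library lay above its highest WT IL library by more than the spread within either group, and the value was 3.75 without WT IL A and 4.99 without WT IL C. DESeq2's adjusted p was 0.140. Rpl29 has processed pseudogenes whose reads can be shared with it, and of these Rpl29-ps1, Rpl29-ps2 and Rpl29-ps5 were chosen after their values were seen and reached at most 1.35 CPM in an IL library. Of the 81 ribosomal protein genes tested, no other had cKO IL libraries that all lay above the WT IL libraries.

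Slc7a11, the cystine importer that supplies cysteine for glutathione, stood at 128, 155 and 63.6 CPM in cKO IL, against 19.0, 32.3 and 50.6 CPM in WT IL. The Slc7a11 log2 fold change was 1.77 ± 0.54 (SE), unadjusted p = 0.00348. All WT IL libraries, WT IL C included, lay under the lowest cKO IL library. Gatm, the first enzyme of creatine synthesis, stood at 598, 388 and 672 CPM in cKO IL, against 13.8, 59.8 and 205 CPM in WT IL. The Gatm log2 fold change was 2.57 ± 0.80 (SE), unadjusted p = 0.00386. Saa3, an acute-phase apolipoprotein, stood at 57.1, 17.6 and 14.2 CPM in cKO IL, against 4.36, 3.47 and 5.21 CPM in WT IL. The Saa3 log2 fold change was 2.77 ± 0.90 (SE), unadjusted p = 0.00517. The 3 WT IL libraries were close together for Saa3, unlike for Gatm, where WT IL C lay nearest to cKO IL. Vcan, the matrix proteoglycan versican that monocytes carry, had a log2 fold change of 1.61 ± 0.58 (SE), unadjusted p = 0.0111, and Stk17b, a kinase of apoptosis and lymphoid signalling, had 1.52 ± 0.55 (SE), unadjusted p = 0.0112. The remaining genes of this group were Chil3 and the interferon-induced Ifit2, Oasl1 and Slfn9.

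**Figure D2:**
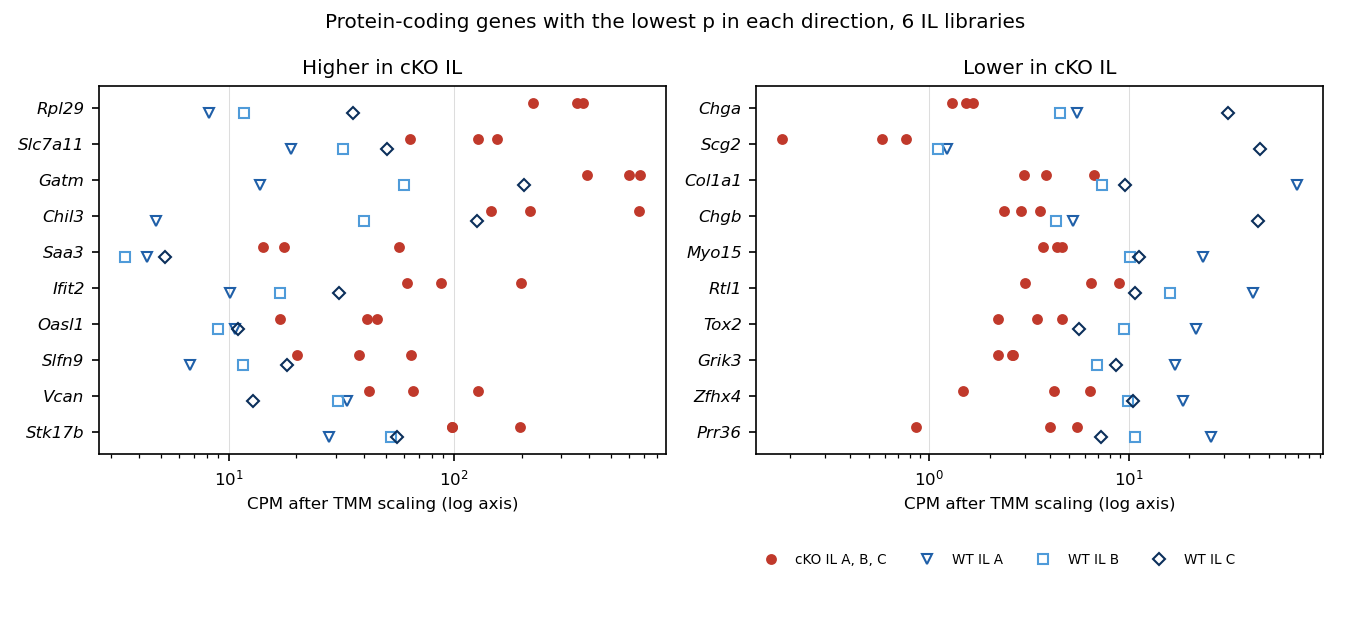
Levels in CPM after TMM scaling (x axes, log scale) of the 10 protein-coding genes with the lowest p in each direction among those whose groups did not overlap. Each point is a library: cKO IL as filled circles, WT IL A, B and C as open triangles, squares and diamonds; for the granins Chga, Scg2 and Chgb, WT IL C stands far to the right.

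Every cKO IL library lay below every WT IL library for 4.39% of all genes tested and 1.52% of the abundant protein-coding genes. Among the 10 genes lower in cKO IL with the lowest p, Chga (chromogranin A), a granin that fills secretory granules of neuroendocrine cells, stood at 1.30, 1.65 and 1.53 CPM in cKO IL, against 5.46, 4.49 and 31.1 CPM in WT IL. The Chga log2 fold change was -3.19 ± 0.84 (SE), unadjusted p = 0.000903, and it was -3.57 without WT IL A and -1.73 without WT IL C. Scg2 (secretogranin II) stood at 0.576, 0.768 and 0.183 CPM in cKO IL, against 1.22, 1.10 and 45.2 CPM in WT IL, and Chgb (chromogranin B) at 2.88, 2.36 and 3.57 CPM in cKO IL, against 5.23, 4.28 and 44.2 CPM in WT IL. All 3 granins were high mainly in WT IL C. Col1a1, a chain of type I collagen, stood at 3.85, 6.67 and 2.99 CPM in cKO IL, against 69.6, 7.30 and 9.53 CPM in WT IL, high mainly in WT IL A, and its log2 fold change was -2.67 with all libraries and -0.90 without WT IL A. The other 6 genes of this group, Myo15, Rtl1, Tox2, Grik3, Zfhx4 and Prr36, had log2 fold changes of -2.13 to -1.69 and their highest level in WT IL A. Grik3 is a kainate receptor subunit, Myo15 an unconventional myosin of hair cells and Rtl1 an imprinted gene derived from a retrotransposon.

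Interferon-induced genes stood higher in cKO IL than in each of the WT IL libraries, WT IL C included, for most of their list. All 36 genes of the list had a positive log2 fold change, with all libraries, without WT IL A and without WT IL C, against 41.9%, 50.5% and 37.4% of all genes tested. The median was 1.44 (1.10 without WT IL A and 1.88 without WT IL C), and its distance from the median over all genes was 1.68 (1.09 without WT IL A and 2.37 without WT IL C). The groups did not overlap for 20 of 36, where the background was 4.82% of all genes and 11.3% of abundant protein-coding genes. WT IL A lay below every cKO IL library for 33, WT IL B for 33 and WT IL C for 24 of the 36, against 53.4%, 55.1% and 30.9% of the abundant protein-coding genes. The summed level of the list was 1636, 1852 and 2882 CPM in cKO IL, against 608, 809.8 and 1251 CPM in WT IL, and its mean log2 level was 4.99, 5.25 and 5.90 in cKO IL, against 3.22, 3.84 and 4.55 in WT IL, with the CL libraries between 0.25 and 4.51. None was called by edgeR, and 12 of 36 passed the 2-fold and unadjusted p thresholds (3 without WT IL A and 22 without WT IL C, against 0.334%, 0.0757% and 4.25% of all genes). The list of 28 monocyte genes summed to 32152, 28126 and 14133 CPM in cKO IL, against 1518, 7362 and 18763 CPM in WT IL in the same libraries, and its part in this difference was not tested.

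Ifit2, whose protein binds viral RNA and blocks its translation, led the list (chr19:34550694-34576419, + strand). It stood at 62.0, 87.9 and 198 CPM in cKO IL, against 10.1, 16.9 and 31.0 CPM in WT IL. The Ifit2 log2 fold change was 2.59 ± 0.84 (SE), unadjusted p = 0.00529. Its lowest cKO IL library was above WT IL C, the highest WT IL library. Oasl1, which binds the Irf7 transcript and restrains its translation in mouse, stood at 16.9, 41.1 and 45.6 CPM in cKO IL, against 10.6, 9.02 and 10.97 CPM in WT IL. The Oasl1 log2 fold change was 1.76 ± 0.60 (SE), unadjusted p = 0.00737. Oas2, which makes the oligoadenylate messenger that activates RNase L, stood at 31.1, 55.2 and 71.7 CPM in cKO IL, against 11.1, 26.2 and 18.2 CPM in WT IL. The Oas2 log2 fold change was 1.51 ± 0.62 (SE), unadjusted p = 0.0227. The 3 WT IL libraries of Oasl1 and Oas2 lay below all 3 cKO IL libraries.

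Ifih1, the cytosolic sensor MDA5 of long double-stranded RNA, stood at 79.6, 65.8 and 106 CPM in cKO IL, against 23.6, 38.4 and 49.6 CPM in WT IL. The Ifih1 log2 fold change was 1.17 ± 0.49 (SE), unadjusted p = 0.0241. Eif2ak2, taken from the list of stress response genes, encodes the RNA-activated kinase PKR that halts translation and stood at 108, 112 and 176 CPM in cKO IL, against 32.7, 43.1 and 81.3 CPM in WT IL. The Eif2ak2 log2 fold change was 1.33 ± 0.54 (SE), unadjusted p = 0.0224. Trim30a, which dampens Toll-like receptor signalling in mouse, and Ifi207, of the family of DNA-binding Ifi200 proteins, had the highest mean levels of the list. Trim30a stood at 164, 135 and 219 CPM in cKO IL, against 70.4, 82.3 and 111 CPM in WT IL, a log2 fold change of 0.97 ± 0.49 (SE), unadjusted p = 0.0612, and Ifi207 at 176, 184 and 153 CPM in cKO IL, against 43.8, 97.9 and 139 CPM in WT IL. The Ifi207 log2 fold change was 0.87 ± 0.55 (SE), unadjusted p = 0.128. Ifit, Ifi200, Oas and Slfn genes lie in clusters of close copies, and reads they share make single values uncertain. Slfn9, a Schlafen gene, was not on the list and stood at 37.9, 20.1 and 64.5 CPM in cKO IL, against 6.74, 11.6 and 18.2 CPM in WT IL. The Slfn9 log2 fold change was 1.75 ± 0.63 (SE), unadjusted p = 0.0104. Among transcription factors of the pathway, Irf7, the master regulator of the response, stood at 89.4, 106 and 222 CPM in cKO IL, against 28.4, 45.2 and 66.8 CPM in WT IL, and Irf9, a partner of STAT2, at 70.8, 87.2 and 96.8 CPM in cKO IL, against 57.9, 46.5 and 52.3 CPM in WT IL. Irf7 and Irf9 did not overlap between genotypes. Both were picked after their values were seen.

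**Figure D3:**
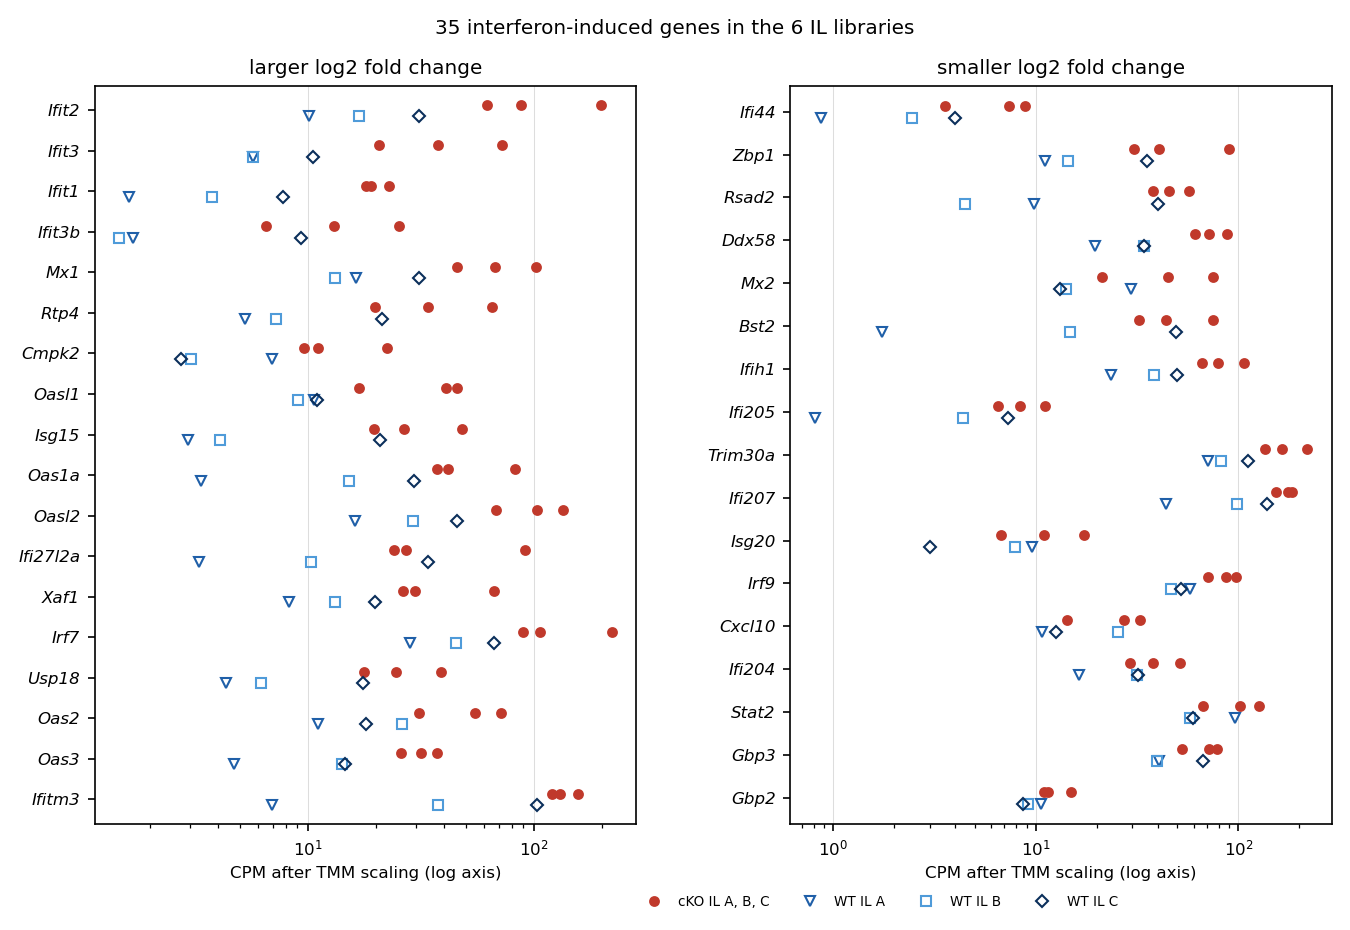
Levels in CPM after TMM scaling (x axes, log scale) of 35 of the 36 interferon-induced genes, ordered by log2 fold change. Each point is a library: cKO IL as filled circles, WT IL A, B and C as open triangles, squares and diamonds. Over all 36 genes of the list, every cKO IL library lies above WT IL C for 24 and above all WT IL libraries for 20.

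Many interferon-induced promoters hold an interferon-stimulated response element (ISRE), whose core pairs of GAAA letters are read by IRF9 and its partners. The letters GAAA, any 2 bases and GAAA again were searched on both strands in the 250 bases before each start site of the RefSeq promoters (GRCm38.p6), a motif chosen after the data were seen. They were found in 978 of 32851 promoters (2.98%; 936 of 27025 genes, 3.46%). The promoter table held 27 of the 36 genes and 15 of these had the letters, but fewer than 80% of the list was matched, so the shares were not compared. The windows of Ifit2 and Oasl1 in that table held no match. The windows of Ifit3, Isg15, Trim30a and Ifi207 are shown because the first pair has several copies of the core and the last pair the highest levels, with matches in capitals, the strand of transcription 5′ to 3′. They lie at chr19:34583343-34583446 (+ strand), chr4:156200845-156200926 (- strand), chr7:104465194-104465259 (- strand) and chr1:173741811-173741880 (- strand). A match is a description of letters, not a shown site.
Ifit3: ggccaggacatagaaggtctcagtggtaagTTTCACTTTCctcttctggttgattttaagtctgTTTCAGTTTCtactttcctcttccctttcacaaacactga
Isg15: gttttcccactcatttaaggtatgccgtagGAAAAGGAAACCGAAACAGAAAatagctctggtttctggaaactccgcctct
Trim30a: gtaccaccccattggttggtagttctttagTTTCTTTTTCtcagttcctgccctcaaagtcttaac
Ifi207: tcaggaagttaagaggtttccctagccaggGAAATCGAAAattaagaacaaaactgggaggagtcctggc
Ifit3, also of the family that binds viral RNA, stood at 20.6, 37.6 and 72.3 CPM in cKO IL, against 5.75, 5.75 and 10.6 CPM in WT IL, and Isg15, a ubiquitin-like protein that is joined to other proteins, at 19.7, 26.8 and 48.1 CPM in cKO IL, against 2.96, 4.08 and 21.0 CPM in WT IL. Ifit3 did not overlap between genotypes and Isg15 did. Both were picked after their values were seen, and the windows of Ifit3 and its copy Ifit3b were identical.

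Phagocytosis genes of the study's plotted list were higher on average in cKO IL for 12 of 12 genes, with a median of 1.09 (0.69 without WT IL A and 1.64 without WT IL C). The study chose this list, and the other lists named as its own, on these libraries, so their direction is not independent evidence. The groups did not overlap for 2 of 12, against 4.82% of all genes and 11.3% of abundant protein-coding genes. The 2-fold and unadjusted p thresholds passed 5 (0.334% of all genes), 0 without WT IL A and 7 without WT IL C. C5ar1, the receptor of complement fragment C5a, stood at 274, 114 and 98.1 CPM in cKO IL, against 51.4, 94.6 and 84.9 CPM in WT IL. The C5ar1 log2 fold change was 1.07 ± 0.50 (SE), unadjusted p = 0.0429. Tlr13, the endosomal sensor of bacterial ribosomal RNA in mouse, stood at 421, 187 and 203 CPM in cKO IL, against 27.1, 87.8 and 188 CPM in WT IL. The Tlr13 log2 fold change was 1.42 ± 0.58 (SE), unadjusted p = 0.0225. Fcgr2b, the inhibitory Fc receptor, stood at 551, 568 and 338 CPM in cKO IL, against 37.4, 149 and 436 CPM in WT IL. The Fcgr2b log2 fold change was 1.23 ± 0.59 (SE), unadjusted p = 0.0492. WT IL C lay within the cKO IL range for Tlr13 and Fcgr2b, and C5ar1 alone of these 3 had no overlap. Of 17 Toll-like receptor genes and cofactors, 14 had a positive log2 fold change, with a median of 0.65 (0.45 without WT IL A and 1.02 without WT IL C).

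The study's lipid metabolism list was higher in cKO IL for 11 of 11 tested genes (of 12), with a median of 1.27 (1.06 without WT IL A and 1.83 without WT IL C) and no overlap for 7 of 11, against 4.82% of all genes and 11.3% of abundant protein-coding genes. Besides Saa3, Il1rn, the gene of the antagonist of the interleukin-1 receptor, stood at 73.9, 78.3 and 48.7 CPM in cKO IL, against 3.84, 17.0 and 41.9 CPM in WT IL. The Il1rn log2 fold change was 1.68 ± 0.66 (SE), unadjusted p = 0.0179. Igf2r, the receptor that carries mannose phosphate-tagged enzymes to lysosomes, stood at 542, 379 and 197 CPM in cKO IL, against 34.2, 119.8 and 195 CPM in WT IL. The Igf2r log2 fold change was 1.68 ± 0.62 (SE), unadjusted p = 0.013. In both, WT IL C lay below the lowest cKO IL library. F10, coagulation factor X, stood at 194, 194 and 67.7 CPM in cKO IL, against 7.55, 45.8 and 84.7 CPM in WT IL, with WT IL C inside the cKO IL range, and Rbl1, a pocket protein of the cell cycle, at 66.3, 52.1 and 80.7 CPM in cKO IL, against 15.1, 31.1 and 36.3 CPM in WT IL. Il1rn, F10 and Rbl1 are not known as enzymes of lipid metabolism.

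For cholesterol export, the study's LXR and RXR list had 10 of 13 positive log2 fold changes and a median of 0.53 (0.16 without WT IL A and 0.93 without WT IL C). The groups did not overlap for 1 of 13, near the 4.82% of all genes and 11.3% of abundant protein-coding genes. The gene without overlap was Lrp1, an endocytic receptor of ApoE and other ligands, which stood at 13106, 13349.5 and 9436 CPM in cKO IL, against 8431, 7051 and 9287 CPM in WT IL. The Lrp1 log2 fold change was 0.54 ± 0.53 (SE), unadjusted p = 0.32. Abca1, which hands cholesterol to lipid-poor ApoE, stood at 3644, 3415 and 2563 CPM in cKO IL, against 1136, 2229.6 and 2999 CPM in WT IL. The Abca1 log2 fold change was 0.60 ± 0.45 (SE), unadjusted p = 0.2. Apoe, the main lipid carrier of the brain, stood at 48713, 39052 and 47624 CPM in cKO IL, against 3219, 15627 and 69729 CPM in WT IL. The Apoe log2 fold change was 0.61 ± 0.78 (SE), unadjusted p = 0.443, and it was 0.08 without WT IL A and 2.26 without WT IL C. WT IL C had the highest Apoe of the 6 libraries, above every cKO IL library.

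The DAM list of the study showed the same dependence on WT IL A and WT IL C. It had 12 of 12 positive log2 fold changes and a median of 0.76 (0.35 without WT IL A and 1.72 without WT IL C). WT IL A lay below every cKO IL library for 12, WT IL B for 10 and WT IL C for 2 of 12, against 53.4%, 55.1% and 30.9% of abundant protein-coding genes. The groups did not overlap for 2 of 12, against 4.82% of all genes and 11.3% of abundant protein-coding genes. The summed level was 78652, 57473 and 68141 CPM in cKO IL, against 5190.2, 24672 and 93699.7 CPM in WT IL, with the highest sum of all in WT IL C. Cst7 (cystatin F), an inhibitor of lysosomal cysteine proteases, was among those without overlap, with 27.9, 13.1 and 24.6 CPM in cKO IL, against 1.05, 8.16 and 12.1 CPM in WT IL and a log2 fold change of 1.62 ± 0.90 (SE), unadjusted p = 0.0839. Fabp5, a fatty acid binding protein of lipid-laden cells and a member of a wider DAM list, overlapped, with 3442, 1609 and 1493 CPM in cKO IL, against 6.45, 394 and 3589.9 CPM in WT IL and a log2 fold change of 0.71 ± 0.98 (SE), unadjusted p = 0.476. The Fabp5 value was 0.13 without WT IL A and 3.44 without WT IL C.

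**Figure D4:**
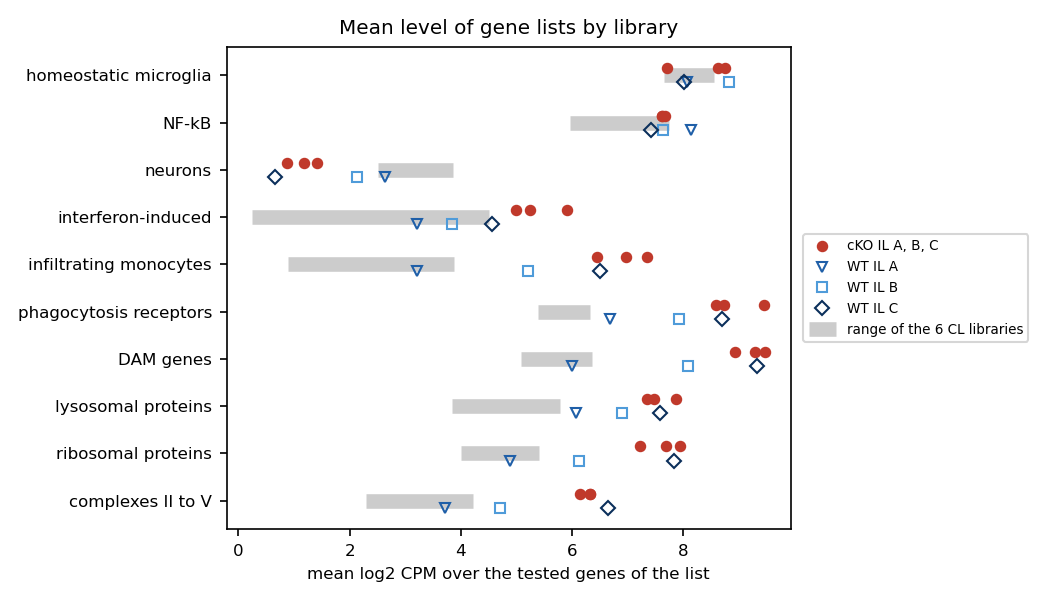
Mean log2 level (x axis, log2 CPM) of gene lists in each library, with cKO IL as filled circles above WT IL A, B and C as open triangles, squares and diamonds, and grey bars for the range of the 6 CL libraries. WT IL A is the lowest IL library in the lists from interferon-induced genes down to complexes II to V; in the interferon-induced list every cKO IL library lies above WT IL C.

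Lysosomal genes were higher in cKO IL on average but overlapped between genotypes in most cases. Of 54 lysosomal enzyme and membrane genes, 50 had a positive log2 fold change and 4 did not overlap, with a median of 0.57 (0.28 without WT IL A and 1.11 without WT IL C). Among abundant protein-coding genes 68.5% were positive and 11.3% lay apart in this direction (4.82% of all genes). Of 17 cathepsins and cystatins, 15 were positive with a median of 0.80 (0.47 without WT IL A and 1.52 without WT IL C), and of 18 subunits of the V-ATPase, the proton pump that acidifies lysosomes, 16 were positive with a median of 0.63 (0.35 without WT IL A and 1.30 without WT IL C). The study's phagolysosome list gave 9 of 9 positive values, a median of 0.81 (0.40 without WT IL A and 1.82 without WT IL C) and 0 genes without overlap. Ctsl (cathepsin L), a protease of lysosomes, stood at 1109.8, 780.2 and 1099 CPM in cKO IL, against 207.5, 358 and 739 CPM in WT IL. The Ctsl log2 fold change was 1.20 ± 0.53 (SE), unadjusted p = 0.0336. Lgmn (legumain), the asparaginyl protease that matures cathepsins, stood at 5797, 3530.0 and 3742 CPM in cKO IL, against 1269, 2264 and 3529.8 CPM in WT IL. The Lgmn log2 fold change was 0.89 ± 0.47 (SE), unadjusted p = 0.0728. Neither overlapped, by a small margin over WT IL C for Lgmn. Ctsb (cathepsin B) stood at 13140.1, 8356 and 8784 CPM in cKO IL, against 692, 3744 and 10849.5 CPM in WT IL, a log2 fold change of 0.99 ± 0.65 (SE), unadjusted p = 0.145, and overlapped through WT IL C. The Ctsb value was 0.47 without WT IL A and 2.19 without WT IL C.

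Lysosomal promoters are known for the CLEAR element, the site of TFEB, whose core is TCACGTG. In the same windows these letters were found on either strand in 1028 of 32851 promoters (3.13%; 968 of 27025 genes, 3.58%), and in 11 of the 44 lysosomal genes of 54 that the table held (25%). The shorter E-box CACGTG, which lies inside each of those matches, was found in 1978 promoters (6.02%; 1854 genes, 6.86%) and in 11 of the 44 genes (25%). Cathepsins and V-ATPase subunits had under 80% of genes matched and were not compared. Lamp1, Lgmn and Atp6v1a are shown because each holds the core, with matches in capitals, the strand of transcription 5′ to 3′. They lie at chr8:13159069-13159160 (+ strand), chr12:102439106-102439172 (- strand) and chr16:44139354-44139421 (- strand).
Lamp1: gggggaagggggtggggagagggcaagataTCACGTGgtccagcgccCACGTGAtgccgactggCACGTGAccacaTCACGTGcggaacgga
Lgmn: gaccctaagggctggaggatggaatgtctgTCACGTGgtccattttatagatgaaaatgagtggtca
Atp6v1a: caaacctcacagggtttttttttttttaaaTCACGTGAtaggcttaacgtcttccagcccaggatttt
Lamp1, a glycoprotein of the lysosome's limiting membrane, stood at 1878, 1079.5 and 1223 CPM in cKO IL, against 164, 624 and 1482 CPM in WT IL. The Lamp1 log2 fold change was 0.88 ± 0.66 (SE), unadjusted p = 0.195. Atp6v1a, the ATP-splitting subunit of the V-ATPase, stood at 378, 273 and 277 CPM in cKO IL, against 83.8, 142 and 308 CPM in WT IL. The Atp6v1a log2 fold change was 0.80 ± 0.48 (SE), unadjusted p = 0.111. Both overlapped between genotypes.

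Genes of energy metabolism were higher in cKO IL on average and overlapped in most cases. In the study's lists, 8 of 9 glycolysis genes, 7 of 7 of the tricarboxylic acid (TCA) cycle and 13 of 15 of oxidative phosphorylation had positive log2 fold changes (the other 2 of the last list were the mitochondrially encoded mt-Atp6 and mt-Atp8), with medians of 0.31 (0.38 without WT IL A and 0.50 without WT IL C), 0.76 (0.51 without WT IL A and 1.23 without WT IL C) and 0.72 (0.44 without WT IL A and 1.44 without WT IL C). The groups did not overlap for 1, 2 and 0 genes of these lists, in that order, against 4.82% of all genes and 11.3% of abundant protein-coding genes. The 2-fold and unadjusted p thresholds passed 0 genes of each list as higher, against 0.334% of all genes. They passed 1 gene of the oxidative phosphorylation list as lower, against 2.03% of all genes. Without WT IL A the higher counts stayed at 0 (0.0757% of all genes), and without WT IL C they were 3, 4 and 8 (4.25%). Pdha1, the subunit of pyruvate dehydrogenase that feeds the TCA cycle, stood at 133, 110.0 and 108 CPM in cKO IL, against 43.5, 55.7 and 92.4 CPM in WT IL, a log2 fold change of 0.87 ± 0.51 (SE), unadjusted p = 0.104, and did not overlap. Ldha, which turns pyruvate into lactate, stood at 393, 251 and 252 CPM in cKO IL, against 43.6, 117 and 308 CPM in WT IL, and Atp5b, the catalytic subunit of ATP synthase, at 444, 371 and 308 CPM in cKO IL, against 72.3, 125 and 360.5 CPM in WT IL. WT IL C lay within the cKO IL range in both.

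Of the nuclear genes of complex I, 37 of 37 tested (of 38) were positive, with a median of 0.75 (0.31 without WT IL A and 1.98 without WT IL C). WT IL A lay below every cKO IL library for 37, WT IL B for 36 and WT IL C for 0, against 53.4%, 55.1% and 30.9% of abundant protein-coding genes. WT IL C lay above every cKO IL library for 21, against 13.5% of abundant protein-coding genes and 13.6% of all genes. For complexes II to V, 39 of 39 were positive, with a median of 0.72 (0.31 without WT IL A and 1.85 without WT IL C). WT IL C lay above every cKO IL library for 23 of these, against the same 13.5% and 13.6%. Ribosomal protein genes gave the same picture, with 81 of 81 positive, a median of 0.84 (0.38 without WT IL A and 1.96 without WT IL C) and no overlap for Rpl29 alone. Of 36 proteasome genes, 36 were positive, with a median of 0.69 (0.38 without WT IL A and 1.47 without WT IL C) and no overlap for 3, against 11.3% of abundant protein-coding genes. Psmb8, an inducible subunit of the immunoproteasome, was 1 of these 3, with 109, 88.4 and 92.4 CPM in cKO IL, against 27.7, 41.5 and 81.9 CPM in WT IL and a log2 fold change of 0.94 ± 0.49 (SE), unadjusted p = 0.067.

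**Figure D5:**
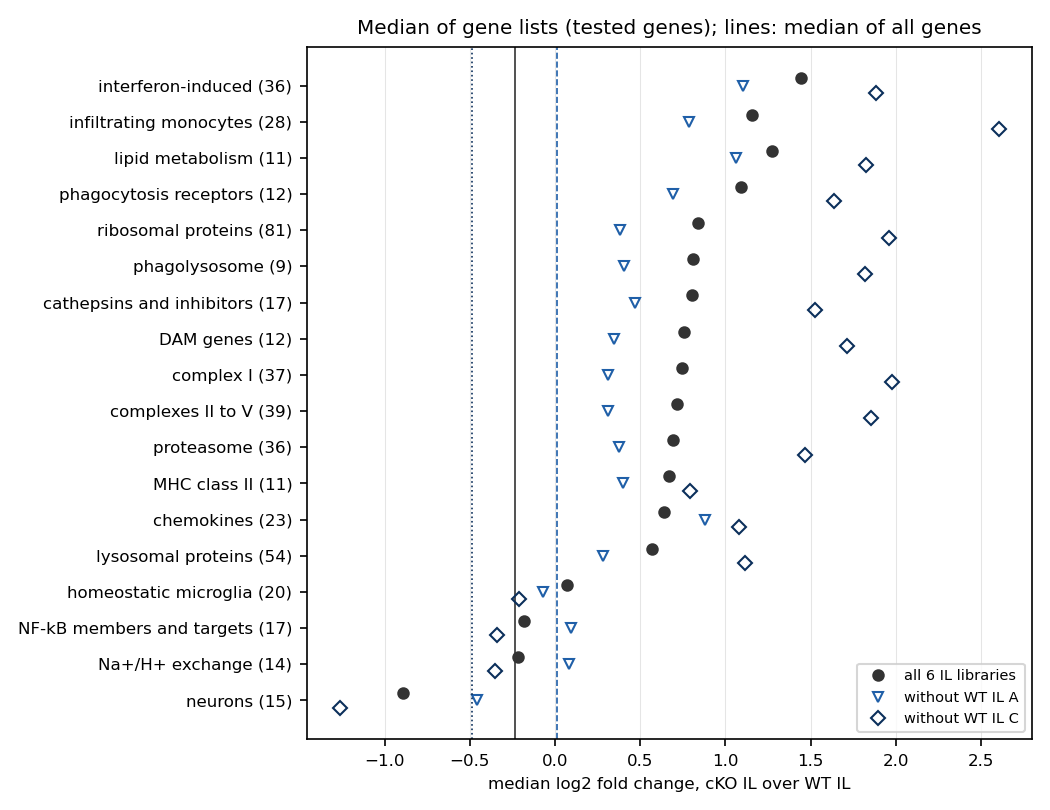
Median log2 fold change (x axis, cKO IL over WT IL) of gene lists, with all 6 libraries, without WT IL A and without WT IL C, and vertical lines at the median of all genes tested in each setting. In each setting, every list drawn except homeostatic microglia and neurons lies to the right of that setting's line. The NF-kB and Na+/H+ exchange lists do so by only 0.02 to 0.15.

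Antigen presentation and chemokine genes varied with the library too. Of 11 genes of MHC class II, 9 were positive, with a median of 0.67 (0.40 without WT IL A and 0.80 without WT IL C). H2-Ab1, the beta chain of I-A, stood at 1743, 2351 and 651 CPM in cKO IL, against 103, 587 and 978 CPM in WT IL, a log2 fold change of 1.51 ± 0.64 (SE), unadjusted p = 0.0267, with WT IL C above cKO IL C. H2 genes share reads with near copies, so their values are uncertain. Of 23 chemokines, 20 were positive, with a median of 0.64 (0.88 without WT IL A and 1.08 without WT IL C). Ccl12, a ligand of CCR2 that draws monocytes in mouse, stood at 47.7, 55.1 and 117 CPM in cKO IL, against 10.1, 17.4 and 41.6 CPM in WT IL, a log2 fold change of 1.67 ± 0.81 (SE), unadjusted p = 0.0493, without overlap. Ccl2, the main CCR2 ligand, stood at 111, 139 and 157 CPM in cKO IL, against 23.8, 30.7 and 116 CPM in WT IL, with WT IL C just above the lowest cKO IL library. NF-kB genes had no common direction: 7 of 17 were positive and the median was -0.18 (0.10 without WT IL A and -0.34 without WT IL C). Nfkb2, a subunit of the noncanonical pathway, stood at 149, 192 and 158 CPM in cKO IL, against 670.1, 225 and 147 CPM in WT IL, high mainly in WT IL A.

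Homeostatic genes of microglia had no common direction either. Of 20, 11 were positive, against 41.9% of all genes tested and 68.5% of abundant protein-coding genes. The median was 0.07 (-0.07 without WT IL A and -0.21 without WT IL C). The cKO IL libraries all lay above the WT IL libraries for 0 of 20, against 4.82% of all genes and 11.3% of abundant protein-coding genes. They all lay below for 0 as well, against 4.39% and 1.52%. Siglech, a sialic acid-binding lectin of microglia, stood at 199, 67.5 and 182 CPM in cKO IL, against 502, 459 and 86.8 CPM in WT IL, a log2 fold change of -1.22 ± 0.55 (SE), unadjusted p = 0.0366, with WT IL C low. Cx3cr1, the fractalkine receptor whose allele carries the Cre, stood at 778, 335 and 810.2 CPM in cKO IL, against 2184, 1703 and 743 CPM in WT IL. The Cx3cr1 log2 fold change was -1.27 ± 0.71 (SE), unadjusted p = 0.0864. Both genotypes carry that Cre allele, and the level of Cx3cr1 in WT IL C lay inside the cKO IL range. Gpr34, a lysophosphatidylserine receptor, stood at 165, 60.4 and 247 CPM in cKO IL, against 13.1, 102 and 94.8 CPM in WT IL, a log2 fold change of 1.17 ± 0.66 (SE), unadjusted p = 0.0892. Pdgfb, a growth factor for pericytes on the list of restorative markers, stood at 113, 139 and 187 CPM in cKO IL, against 551, 327 and 117 CPM in WT IL. The Pdgfb log2 fold change was -1.18 ± 0.51 (SE), unadjusted p = 0.0288. Of 15 neuronal genes, 0 were positive and the median was -0.89 (-0.46 without WT IL A and -1.26 without WT IL C). For 2, all cKO IL libraries lay below the WT IL libraries, against 4.39% of all genes and 1.52% of abundant protein-coding genes. The mean log2 level of the list was 1.41, 0.88 and 1.18 in cKO IL, against 2.64, 2.13 and 0.65 in WT IL. WT IL C was thus the lowest of the 6 libraries. It lay below every cKO IL library for 9 genes (30.7% of all genes) and above every one for 3 (13.6% of all genes).

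Proliferation and oxidative stress genes were mostly positive. Of 33 cell cycle genes, 31 were positive and 4 did not overlap, and Mki67, the proliferation marker Ki-67, stood at 787, 328 and 682 CPM in cKO IL, against 66.9, 289 and 403 CPM in WT IL. The Mki67 log2 fold change was 1.25 ± 0.85 (SE), unadjusted p = 0.154. Of 21 genes of the NRF2 response to oxidative stress, Slc7a11 among them, 20 were positive, and the groups did not overlap for 2. Both counts without overlap stand against 11.3% of abundant protein-coding genes. WT IL C lay below every cKO IL library for 5 and 3 genes of these lists, in that order, against 30.9% of the abundant protein-coding genes.

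Genotype effects in IL and CL were compared by the interaction in the same fit. edgeR called 0 genes at an adjusted p under 0.05 (0% of 35674), and 1355 had an unadjusted p under 0.05 (3.8%). DESeq2 called 5 higher and 5 lower. For Rpl29 the interaction was 4.24 ± 1.22 on the log2 scale (unadjusted p = 0.00199). The median interaction of the interferon-induced genes was 1.87, against -0.48 over all genes tested and 0.13 over abundant protein-coding genes, a description with no test. Other lists had 1.42 (the study's lipid metabolism list), 1.20 (monocytes), 0.94 (ribosomal proteins) and -0.49 (NF-kB). The CL libraries behind the interaction held 12647526, 5155202 and 2091512 counts in WT CL, against 9743603, 16937855 and 20349883 in cKO CL.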

How the data were processed

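Total RNA of microglia was turned into stranded libraries with a pico-input SMARTer kit (V2) and sequenced on a HiSeq X. The authors deposited whole-number counts per gene for the 12 libraries, made with STAR 2.5.3a and Partek 8.0 on mm10 after they had trimmed adapters and low-quality bases and removed ribosomal and mitochondrial DNA reads. Whether counting used strand, and the annotation release, are not given in the sources used here. Removal of mitochondrial reads makes the levels of mitochondrially encoded genes hard to interpret. Gene positions and biotypes came from GENCODE vM21 (GRCm38), which held 53706 of the 53801 gene IDs, and 127 symbols stood on several genes.

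The counts were tested with edgeR 4.0.16 in R 4.3.3 (TMM scaling, filterByExpr, quasi-likelihood test, all 12 libraries with a mean per group, Benjamini-Hochberg adjustment over 35674 genes, adjusted p under 0.05). The IL libraries held 18425180 to 47256174 counts. DESeq2 1.42.0, limma 3.58.1, other scalings and filters, and leaving out each library were tried. CPM values are counts scaled per library after TMM scaling and are not corrected for gene length, so they compare libraries, not genes. Genes that could be named were the 10 protein-coding genes per direction with the lowest p, at least 10 CPM in an IL group and no overlap, per described list the 4 lowest p and the 2 highest means, all genes of the study's plotted lists, DESeq2 calls of at least 10 CPM and defining cell type markers; those picked otherwise are said to be. Not all of these are named in the text, and some are not reported here. The members and the 63 gene lists were chosen with earlier results of these data known. The fitting script was tested on simulated data. Figures were drawn with matplotlib 3.10.9.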

Additional observations from a re-analysis of the deposited data

How the results depend on the processing

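The genes given with a log2 fold change are among 61 followed across the settings. All 61 kept the sign of their log2 fold change in every setting in which they could be fitted. Many were named for a low p or no overlap in these same libraries, so a kept sign is not independent evidence. Of the 61, 50 passed an adjusted p under 0.05 by voom, which passed 2578 higher and 1669 lower among all 35674 genes tested, and 4 passed with no filter. The counts of calls were 4 higher and 3 lower by DESeq2, 2578 and 1669 by voom with quality weights, and 3 and 6 with no filter on low counts; leaving out a library gave 0 in each case. Past an unadjusted p under 0.05 and 2-fold, 119 genes were higher and 723 lower (85.9% lower). RLE scaling gave 79 higher, scaling by total counts 48 higher and 1439 lower (96.8% lower), TMM from abundant genes 47 and 1128 (96%), DESeq2 1716 lower, voom 2502 and 6769, no filter 441 higher, at least 10 counts in every library 42 and 462, and protein-coding genes only, chosen after seeing the data, 333 lower. Leaving out a library gave 27 to 1516 higher and 227 to 1756 lower, with 27 without WT IL A and 1516 without WT IL C. The median of all genes was -0.24 with TMM, -0.36 with RLE, -0.62 with total counts and -0.52 with TMM from abundant genes, so list medians were also taken less that of all genes.

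Less that of all genes, list medians under voom were 1.04 for the study's glycolysis list, 1.68 for its oxidative phosphorylation list, 2.19 for complex I, 2.01 for complexes II to V, 1.79 for the proteasome, 1.60 for the V-ATPase, 1.44 for Toll-like receptors, 0.44 for NF-kB and 0.45 for Na+/H+ exchange. With at least 10 counts in every library they were 0.13 for glycolysis, -0.35 for NF-kB and -0.39 for Na+/H+ exchange. Leaving out each library gave ranges of 1.09 to 2.37 for interferon-induced genes, 0.77 to 3.09 for monocytes, 0.30 to 2.47 for complex I, 0.30 to 2.34 for complexes II to V, 0.37 to 2.45 for ribosomal proteins, 0.36 to 1.96 for the proteasome, 0.46 to 2.01 for cathepsins, 0.27 to 1.60 for lysosomal genes, 0.34 to 1.79 for the V-ATPase, 0.44 to 1.51 for Toll-like receptors and 0.78 to 1.57 for chemokines. For the study's lists these ranges were 1.05 to 2.32 for lipid metabolism, 0.68 to 2.12 for phagocytosis, 0.34 to 2.20 for DAM, 0.15 to 1.42 for LXR and RXR, 0.39 to 2.31 for the phagolysosome, 0.25 to 0.99 for glycolysis, 0.50 to 1.72 for the TCA cycle and 0.43 to 1.93 for oxidative phosphorylation.

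No paired analysis was possible because WT IL and cKO IL mice are different animals, so the genotype comparison has no block. For the interaction, DESeq2 called 5 higher and 5 lower and no filter 14 and 3. With the replicate block on the library number shared by CL and IL, added after the column names were seen, edgeR called 0 genes, with 1073 at an unadjusted p under 0.05. The WT IL libraries held 18425180 to 25166928 counts, fewer than any cKO IL library, and thinning every larger library to the smallest IL library gave 96 genes higher and 879 lower past the unadjusted thresholds.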
